A study of Mus musculus with 6 samples.

Results

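Interferon regulatory factors (IRFs) are transcription factors that share an N-terminal DNA-binding domain with a repeated pattern of tryptophans, and they were followed here in regulatory T cells (Tregs) with and without Nfkb2. The members were taken by gene name: of 9 numbered Irf genes in the mouse annotation, 8 are described (Irf1, Irf2, Irf3, Irf4, Irf5, Irf7, Irf8 and Irf9), out of 55573 genes listed in the count files, and the ninth is not analysed here. RNA was counted in 6 libraries of Tregs sorted from mouse spleens, 3 from wild type cells and 3 from Nfkb2-/- cells. All cells came from bi-parental bone marrow chimeras, that is mice given donor marrow, in which host cells may persist. How donors were combined is not stated, and all cells were left in warm culture medium for a short rest before lysis with no other treatment. Nfkb2 encodes p100 and its processed form p52, a subunit of the NF-kB family, and Nfkb2-/- denotes loss of both alleles; the labels give no age, sex, strain or sorting markers. The labels call the libraries biological repeats, and p-values measure the spread between them.

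IRFs bind a short element with repeated GAAA letters, the interferon-stimulated response element (ISRE). IRF3 and IRF7 are switched on by kinases below the sensors of viral nucleic acid and drive interferon genes, whereas IRF9 joins STAT proteins in the complex that answers type I interferon. IRF1 activates and IRF2 largely opposes genes of the interferon response, IRF5 acts below Toll-like receptors in myeloid and B cells, and IRF4 and IRF8 work in lymphoid and myeloid cells by pairing with other factors such as PU.1, SPI-B and BATF. In Tregs, IRF4 is known for its part in the effector state, and in the lymphocyte NF-kB pathway the Irf4 gene is a recognised target of REL proteins.

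The promoters of 4 members are shown because they hold the matches found for interferon and NF-kB elements, or, for Irf4, because it had the clearest difference between genotypes. RefSeq windows (GRCm38.p6) matched all 8 members by symbol, in 11 windows of 300 bases, from 250 before to 50 after a gene start, 3 members having 2 windows each. Each was searched on both strands for the ISRE (GAAA, any 2 bases, then GAAA again), the interferon-gamma activated site (GAS, TTCNNNGAA) and the kappa-B motif. An ISRE stood in 1 of the 11 windows and in 3.44% of all 32851 windows, a GAS in 3 and in 8.3%, and a kappa-B motif in 2 and in 4.51%. The 250 bases before the start are printed 5′ to 3′ on the strand of the gene, with the matches in capitals.

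Irf1 (chr11:53769764-53770013, plus strand): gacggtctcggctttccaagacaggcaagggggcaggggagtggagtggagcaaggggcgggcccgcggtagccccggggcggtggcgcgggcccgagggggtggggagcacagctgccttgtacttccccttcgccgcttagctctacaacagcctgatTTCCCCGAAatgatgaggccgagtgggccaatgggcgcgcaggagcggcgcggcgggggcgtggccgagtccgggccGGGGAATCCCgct
Irf2 (chr8:46739495-46739744, plus strand): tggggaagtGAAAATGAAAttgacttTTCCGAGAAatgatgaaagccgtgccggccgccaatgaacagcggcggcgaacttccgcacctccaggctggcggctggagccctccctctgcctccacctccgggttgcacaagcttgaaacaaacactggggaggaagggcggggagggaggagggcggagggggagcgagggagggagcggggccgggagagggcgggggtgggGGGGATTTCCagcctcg
Irf8 (chr8:120736108-120736357, plus strand): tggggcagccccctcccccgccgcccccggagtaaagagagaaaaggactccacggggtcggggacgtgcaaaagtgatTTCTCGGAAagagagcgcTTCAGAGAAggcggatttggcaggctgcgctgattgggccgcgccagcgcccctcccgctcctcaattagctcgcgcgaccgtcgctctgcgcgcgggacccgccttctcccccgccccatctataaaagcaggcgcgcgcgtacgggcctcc
Irf4 (chr13:30748983-30749232, plus strand): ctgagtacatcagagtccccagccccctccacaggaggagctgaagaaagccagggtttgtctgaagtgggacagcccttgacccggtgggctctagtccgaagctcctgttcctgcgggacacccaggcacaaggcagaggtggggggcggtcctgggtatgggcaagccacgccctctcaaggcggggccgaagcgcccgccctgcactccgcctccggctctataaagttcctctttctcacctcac

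In Irf1 the first capitals are a GAS 90 bases and the second a kappa-B match 13 bases before the start. In Irf2 they are in order an ISRE 241 bases, a GAS 224 bases and a kappa-B match 17 bases before the start, and in Irf8 both are GAS matches, 171 and 153 bases before it. No match overlapped another, and 5 members (Irf3, Irf4, Irf5, Irf7 and Irf9) had none of these letters in their windows. A match is a description of the letters and not a measured site.

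The genes lie apart from Nfkb2, which is on chromosome 19. On GRCm38, Irf1 is at chromosome 11, 53770014 to 53778374, Irf2 at chromosome 8, 46739732 to 46847458, and Irf8 at chromosome 8, 120736358 to 120756694. Irf3 is at chromosome 7, 44997648 to 45002848, and Irf7 at chromosome 7, 141262706 to 141266481. Irf4 is at chromosome 13, 30749226 to 30766976, Irf5 at chromosome 6, 29526625 to 29541871, and Irf9 at chromosome 14, 55603571 to 55610030. All are annotated as protein-coding, and Irf4 alone among them overlaps no other annotated gene.

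Total counts ran from 12005273 to 17278521 per library. CPM here are counts scaled to library size after adjustment by the TMM factor, edgeR's scaling between libraries, and not to the total alone. The TMM factor ran from 0.9543 in wild type replicate 3 to 1.0759 in wild type replicate 1. Nfkb2 itself was at 269 to 324 CPM in Nfkb2-/- and at 545 to 558 CPM in wild type, lower but not absent. Its counts cover the whole gene and do not separate its exons. Of 8 Treg markers all were detected in every library, and they summed to 4579 to 5074 CPM in Nfkb2-/- and 3856 to 5541 CPM in wild type. The genotypes also differed in Xist, at 841, 883 and 592 CPM in Nfkb2-/- replicates 1 to 3 against 1.94 to 16.5 CPM in wild type. In sum, 4 Y-linked genes were at 40.1, 138 and 275 CPM in the same order, against 465 to 498 CPM in wild type. Each Nfkb2-/- library thus held both Xist and Y-linked RNA, in unequal parts. Sex make-up and genotype cannot be told apart in any comparison of these libraries. Wild type replicate 1 stood apart: its chi-square per degree of freedom against the other libraries was 66.9 to 106, and that of the other pairs 5.82 to 48.6. In these bulk samples fewer cells of a type and less RNA per cell cannot be told apart.

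Irf1 and Irf4 were the most abundant members and Irf8 the least. Levels between genes were compared in TPM, that is counts per length of merged exons, scaled to the same total in each library. Mean TPM over the 6 libraries was 219 for Irf1, 159 for Irf4, 86.5 for Irf3, 80.2 for Irf9, 63.6 for Irf7, 40.8 for Irf5, 39.1 for Irf2 and 17.9 for Irf8. The library ranges of neighbours in this order overlapped, except between Irf9 (lowest 74.7 TPM) and Irf7 (highest 71.5 TPM) and between Irf7 (lowest 53.5 TPM) and Irf5 (highest 49.6 TPM). Irf4 ranked above Irf3 in 5 libraries, while in Nfkb2-/- replicate 1 Irf4 was at 78.7 TPM and Irf3 at 82.0 TPM.

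None of the 8 genes passed the main test between genotypes, and Irf4 passed when the replicate number was added as a block (edgeR adjusted p = 0.04). In edgeR's quasi-likelihood test over 13347 genes, with Benjamini-Hochberg adjusted p under 0.05 as the threshold, 0 of 8 were called, where 1.42% of all genes tested were called (1.01% higher and 0.405% lower in Nfkb2-/-). An unadjusted p under 0.05 was reached by 2 members, Irf4 and Irf8, both lower in Nfkb2-/-, where 6.35% of all genes were lower at that p. DESeq2 called 1 member lower (Irf4) and 0 higher, where it called 1.45% of all genes lower and 2.48% higher, and limma-voom called 0. The log2 fold change was negative in 6 of 8 (55.0% of all genes), with a median of -0.18 against -0.03 over all genes tested. In CPM, every Nfkb2-/- library was below every wild type library in 3 members (Irf3, Irf4 and Irf9), as in 9.9% of all genes. In 0 members every one was above (20.6% of all genes were separate in either direction). This depended on the scale. In TPM Irf4 stayed separate, but Irf3 and Irf9 overlapped. Irf8 did not overlap in TPM, at 9.59 to 13.6 in Nfkb2-/- and 15.3 to 38.1 in wild type.

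**Figure D1:**
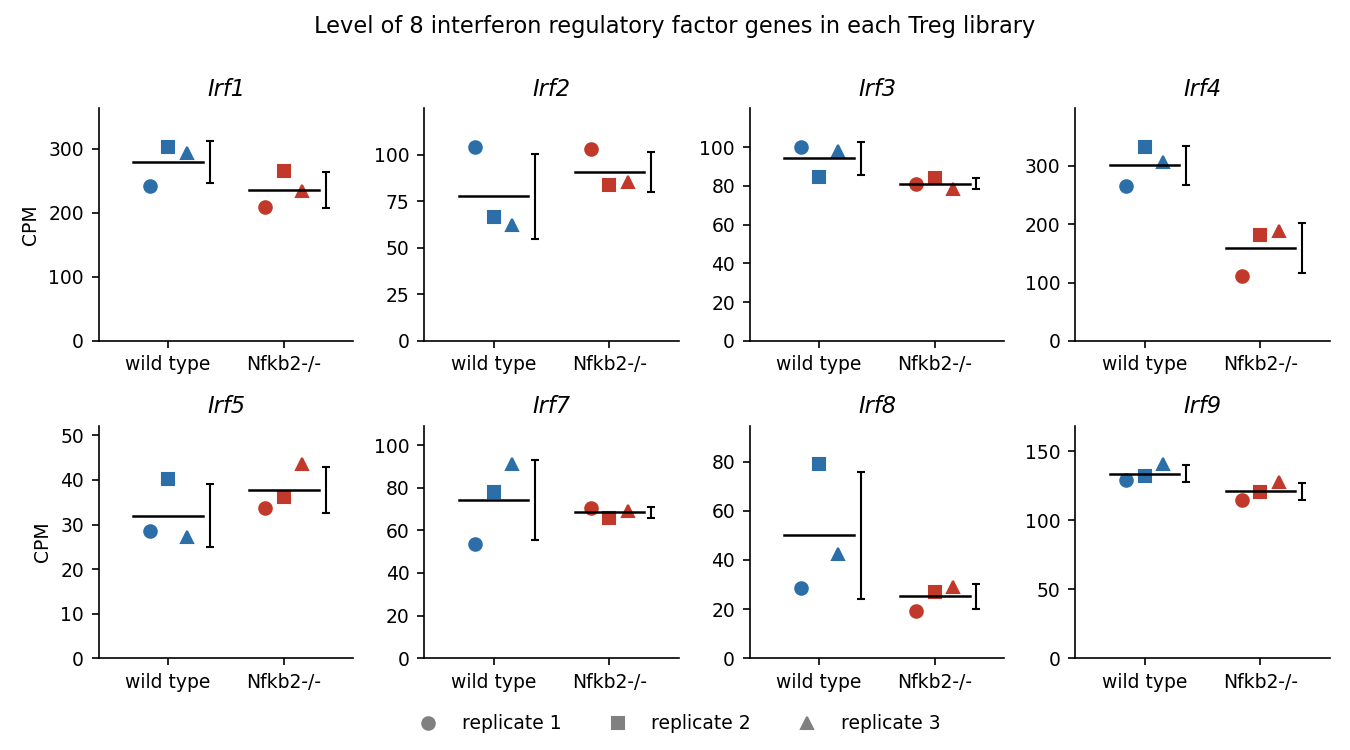
Level of each of the 8 genes in CPM (vertical axis from 0, its own scale in each panel) in 3 wild type (blue) and 3 Nfkb2-/- (red) libraries; symbols mark replicate numbers, horizontal lines the mean and error bars 1 SD. Irf4 is lower in each Nfkb2-/- library, Irf8 is highest in wild type replicate 2, and Irf2 is highest in wild type replicate 1.

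Irf4, the member tied to the effector state of Tregs, had the smallest p-value of the family. Replicates 1 to 3 measured 110.4, 181 and 188 CPM in Nfkb2-/-, against 266, 332 and 306 CPM in wild type. The genotypes did not overlap, and Nfkb2-/- replicate 1 was the lowest library by a wide step. The mean of Nfkb2-/- was 160 ± 42.9 CPM against 301 ± 33.3 CPM for wild type (SD, n = 3 per genotype), which is 0.531 of wild type or a log2 fold change of -0.91 (SE 0.213, 95% interval -1.41 to -0.42; edgeR adjusted p = 0.0988).

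Whether Irf4 passed the threshold depended on the test and on 1 library. Its adjusted p was 0.00599 by DESeq2, 0.0044 in edgeR with no count filter, 0.04 in edgeR with the replicate number as a block and 0.0154 in edgeR without wild type replicate 1. The shares of all genes called lower in these fits were 1.45%, 0.642%, 0.697% and 4.44% in that order. No member was called higher with the block, where 1.47% of all genes were. Without each of the other libraries in turn its edgeR adjusted p lay between 0.172 and 0.293, and the log2 fold change between -1.05 and -0.71. Over all 13 alternatives the adjusted p ran from 0.0044 to 0.293 and the sign was negative in each.

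Irf8, a factor of B cells, dendritic cells and macrophages, was the least abundant and the most uneven member. It measured 19.4, 27.0 and 29.0 CPM in the 3 Nfkb2-/- libraries, against 28.7, 78.8 and 42.5 CPM in wild type. Among the latter, replicate 1 fell just within the CPM range of the Nfkb2-/- libraries, though above their range in TPM (15.3 against 9.59 to 13.6). Wild type replicate 2 was far above all others. The log2 fold change was -0.99 (SE 0.355, 95% interval -1.81 to -0.17; edgeR adjusted p = 0.271). Without wild type replicate 1 it was -1.27 and Irf8 was called lower (edgeR adjusted p = 0.0349), and without wild type replicate 2 it was -0.51 (0.433).

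Summed markers of B cells followed the order of Irf4, and nearly that of Irf8, once Ighm was left out. With Ighm, the sum was highest in wild type replicates 2 and 3, as were both genes, but lowest in wild type replicate 1. Over 14 B cell markers the summed level was 536, 601 and 580 CPM in Nfkb2-/- replicates 1 to 3, against 375, 1081 and 1031 CPM in wild type; 2 of 14, Cd79a among them, were called lower and 0 higher, with a median log2 fold change of -2.39. Most of that sum was Ighm, the constant region gene of IgM. The 13 others, a set trimmed after its values were seen, came to 41.8, 61.0 and 76.9 CPM in Nfkb2-/-, against 117, 374 and 255 CPM in wild type, with no overlap. No B cell marker was at 0 in any library. The order of the 6 libraries by Irf4 was the same as by the sum of these 13 markers, and by Irf8 it differed in one neighbouring pair. Single markers did not all follow it: Cd22 was at 3.88 CPM in wild type replicate 1 and 8.77 to 12.8 CPM in Nfkb2-/-. The part of B cell RNA in the differences of Irf4 and Irf8 was not tested.

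**Figure D2:**
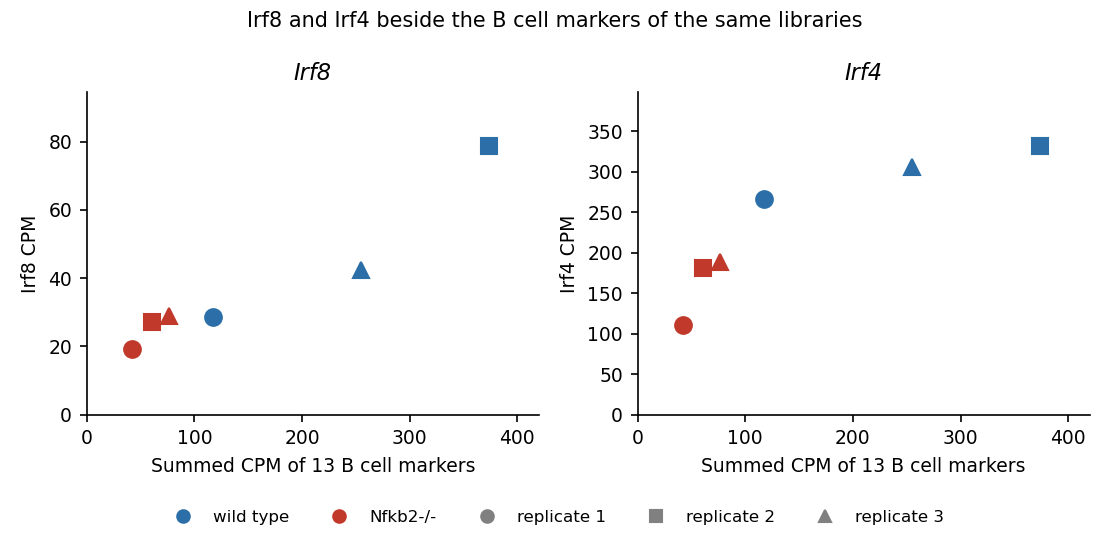
Level of Irf8 (left) and Irf4 (right) in CPM against the summed CPM of 13 B cell markers (all listed markers but Ighm) in the same library; blue marks wild type, red Nfkb2-/-, and symbols the replicate number. Both genes are highest in wild type replicate 2, which also holds the most marker RNA (374 CPM).

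Each list of markers of other cells had a negative median log2 fold change, against -0.03 over all genes tested. Among them single markers went both ways. The 11 dendritic cell markers summed to 133 to 178 CPM in Nfkb2-/- and 62.6 to 145 CPM in wild type, with 1 called higher (Zbtb46) and 0 lower. Zbtb46 alone made up 86.8 to 118.5 CPM of the Nfkb2-/- sums, and the median log2 fold change of the 7 markers tested was -0.41. Siglech, which defines plasmacytoid dendritic cells, was at 20.8 CPM in wild type replicate 2, where Irf8 was highest, and at 0 to 3.75 CPM in the other 5. In wild type replicate 3, the library with the next highest Irf8, Siglech was at 0.84 CPM. Its log2 fold change was -1.54 (edgeR adjusted p = 0.744), and it is named here after its values were seen. The 12 macrophage and monocyte markers summed to 29.8 to 54.0 CPM in Nfkb2-/- and 20.3 to 56.7 CPM in wild type, with 0 called (median -0.16) and with 3 of them, such as Fcgr1 and Spic, at 0 in 1 or more libraries. The 8 plasma cell markers summed to 221 to 250.1 and 158 to 357 CPM, mostly Xbp1 (128 to 233 CPM), with 0 called (median -0.52) and with Mzb1 and Tnfrsf17 at 0 in 1 or more libraries. Jchain, which encodes the joining chain of secreted antibody, was at 9.19 to 15.4 CPM in Nfkb2-/- and 10.8, 68.0 and 85.4 CPM in wild type replicates 1 to 3 (log2 fold change -2.07, edgeR adjusted p = 0.199). The antibody segment Iglv1 had a log2 fold change of -2.40 (edgeR adjusted p = 0.123). Both are named after their values were seen and were the most negative of those tested. The other plasma cell markers tested were Sdc1 (-0.92), Derl3 (-0.11), Xbp1 (0.07) and Prdm1 (0.61). The 10 CD8 T and NK cell markers summed to 42.8 to 56.1 and 32.6 to 62.1 CPM, with Eomes called higher and 0 lower (median -0.33, 8 tested). The 8 neutrophil markers summed to 14.1 to 31.3 and 3.7 to 61.6 CPM, with 0 called (median -0.24, 4 tested). The 8 erythroid markers summed to 24.1 to 45.3 and 35.3 to 61.9 CPM, also with 0 called (median -0.41, 5 tested). The part of any of these cells was not tested.

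Irf1 and Irf2, activator and antagonist at many of the same genes, did not separate the genotypes. Irf1 measured 208, 265 and 234 CPM in the 3 Nfkb2-/- libraries, against 241, 302 and 293 CPM in wild type, and the groups overlapped through wild type replicate 1 (log2 fold change -0.24, 95% interval -0.58 to 0.10, edgeR adjusted p = 0.555). Irf2 measured 103, 83.8 and 85.5 CPM in the 3 Nfkb2-/- libraries, against 104, 66.9 and 62.6 CPM in wild type. Of all 6 libraries, wild type replicate 1 was thus the highest Irf2 library and the other wild type libraries the lowest. Over all libraries the log2 fold change of Irf2 was 0.22 (95% interval -0.26 to 0.70, edgeR adjusted p = 0.726), and without wild type replicate 1 it was 0.49 and called higher (edgeR adjusted p = 0.0258), where 4.6% of all genes were called higher. The TPM ratio of Irf1 to Irf2 was 3.76, 5.88 and 5.08 in Nfkb2-/- and 4.31, 8.41 and 8.72 in wild type. It was thus highest in wild type replicates 2 and 3.

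The members that act in the sensing of nucleic acid and the answer to interferon did not pass the test, and their intervals include 0. Irf3 measured 80.8, 84.0 and 78.6 CPM in the 3 Nfkb2-/- libraries, against 99.9, 84.6 and 97.9 CPM in wild type. The groups were separate only by the narrow gap between 84.0 and 84.6 CPM (log2 fold change -0.22, 95% interval -0.48 to 0.05, edgeR adjusted p = 0.494). Irf9 measured 115, 120.4 and 128 CPM in the 3 Nfkb2-/- libraries, against 129, 132 and 140.5 CPM in wild type, also with a narrow gap (-0.15, interval -0.40 to 0.11, edgeR adjusted p = 0.643). Irf9 had the narrowest interval of the family, which leaves a fold between 0.76 and 1.08. Irf7, an interferon-induced member, measured 70.6, 65.7 and 69.3 CPM in the 3 Nfkb2-/- libraries, against 53.8, 78.3 and 91.0 CPM in wild type, whose libraries enclosed all of the Nfkb2-/- values (-0.12, interval -0.56 to 0.32, edgeR adjusted p = 0.858). Irf5 measured 33.7, 36.1 and 43.5 CPM in the 3 Nfkb2-/- libraries, against 28.6, 40.1 and 27.1 CPM in wild type, again overlapping (0.24, interval -0.20 to 0.68, edgeR adjusted p = 0.666). The wider intervals of Irf7 and Irf5 leave folds between 0.68 and 1.25 and between 0.87 and 1.61, so a lack of a call is not a lack of difference.

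**Figure D3:**
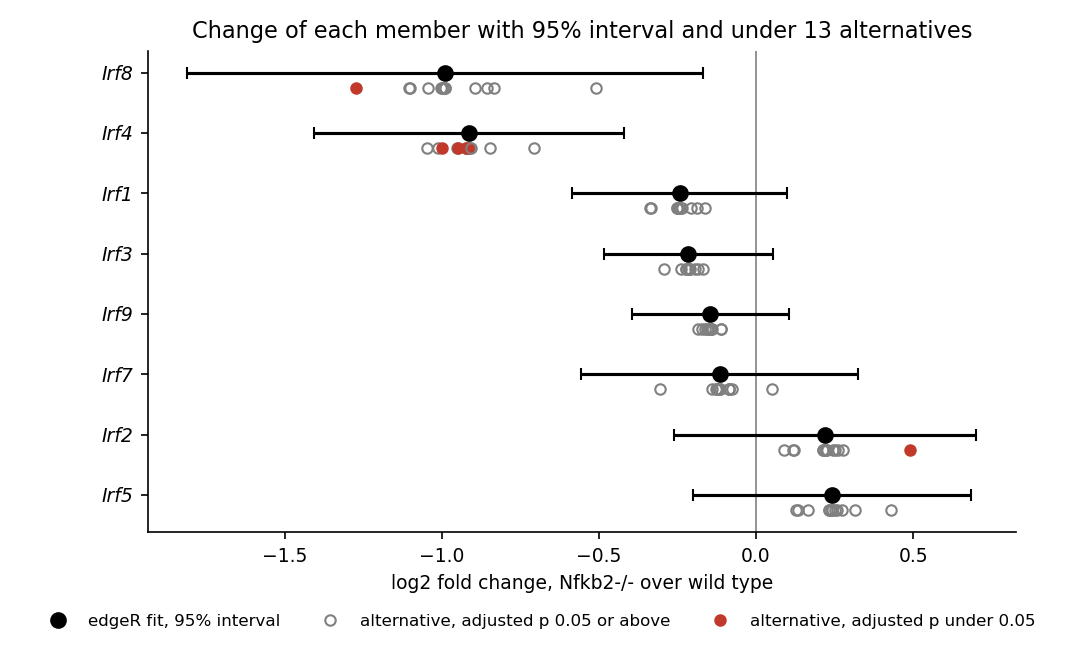
Log2 fold change of each gene (horizontal axis, Nfkb2-/- over wild type): black points with bars are the edgeR fit with its 95% interval, and small circles the 13 alternatives, filled red where the adjusted p was under 0.05. The intervals of Irf4 and Irf8 lie below 0 and those of the other 6 include it; Irf4 has 4 red circles, Irf2 and Irf8 1 each.

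Within the family, Irf4 took a smaller part of the transcripts in Nfkb2-/- Tregs. Of the summed TPM of the 8 genes, Irf4 made up 13.5%, 18.9% and 19.9% in Nfkb2-/- replicates 1 to 3, against 25.8%, 27.3% and 26.2% in wild type. Such a share does not depend on scaling between libraries, and the groups did not overlap, with means of 17.4% ± 3.44 in Nfkb2-/- and 26.4% ± 0.809 in wild type (SD, n = 3 per genotype). Irf1 held 32.0% ± 1.87 and 30.2% ± 1.13 in the same order, and Irf8 1.91% ± 0.247 and 2.99% ± 1.35. The shares are parts of 1 whole, so a smaller part of one gene enlarges those of others. Irf5 (6.36% to 7.77% against 3.91% to 5.58%) and Irf9 (11.45% to 12.8% against 9.91% to 11.41%) held larger shares in Nfkb2-/-, also without overlap. For Irf9 the gap, between 11.41% and 11.45%, was narrow, and its CPM was lower in each Nfkb2-/- library. The sum of the 8 genes, which includes Irf4 itself, was 583, 673 and 638 TPM in Nfkb2-/- and 789, 844 and 708 TPM in wild type, again without overlap. The TPM ratio of Irf4 to Irf8 overlapped between the genotypes, at 8.2 to 9.64 in Nfkb2-/- and 6.06 to 13.3 in wild type.

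**Figure D4:**
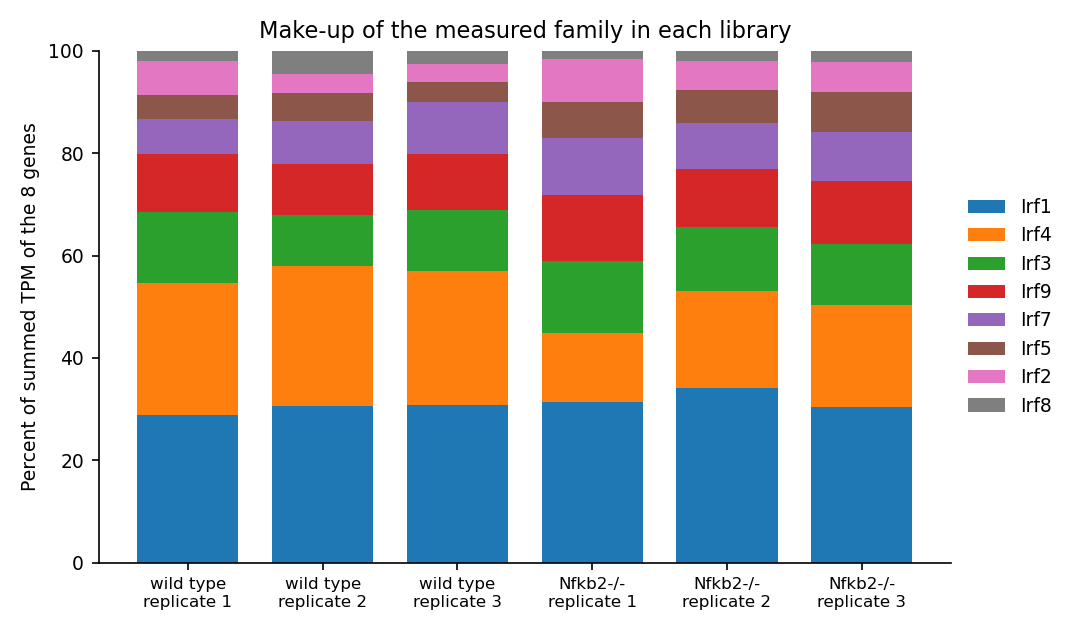
Make-up of the summed TPM of the 8 genes in each library (vertical axis, percent, from 0 to 100); each colour is 1 gene. The orange Irf4 segment is 25.8% to 27.3% in wild type and 13.5% to 19.9% in Nfkb2-/-.

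The genes whose levels ran most like each member over the 6 libraries were sought among tested protein-coding genes whose mean was 10 CPM or more, by Pearson's r of log2(CPM + 1). The 6 points share depth and library make-up, and 4 (Irf5) to 158 (Irf7) of 7922 genes reached an r of 0.95, so these names are a description only. For Irf8 the closest were Spib (r = 0.986), the SPI-B factor that pairs with IRF4 and IRF8, Cd79b (0.969), a B cell receptor chain, and Syk (0.967), a kinase below that receptor. For Irf4 they were Cuedc2 (0.992), the splicing factor gene Srsf6 (0.989) and Gsto1 (0.981), a glutathione transferase. For Irf1 they were Usp6nl (0.98), Pde4b (0.973) and Arpc1b (0.973), for Irf2 Zfyve16 (0.991), Tbc1d30 (0.987) and Zc3h7b (0.987), and for Irf3 Dhrs7b (0.988), Pym1 (0.983) and Acbd4 (0.981). For Irf5 they were Arap2 (0.971), Icam1 (0.967) and Lyn (0.957), for Irf7 Rgcc (0.995), Zbtb21 (0.995) and Rgs3 (0.994), and for Irf9 Epop (0.986), Sqle (0.98) and Abcb8 (0.979). No gene was among the 3 closest of more than 1 member.

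Genes around the IRFs were read from the same fit in 7 lists of 154 genes, of which 146 were tested. Over all lists 4 rose and 2 fell (edgeR adjusted p under 0.05), with a median log2 fold change of -0.05, against 1.01% and 0.405% of all genes. All 4 that rose belong to 1 list, genes of effector Tregs.

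Among partners that bind DNA with IRF4 and IRF8, 1 of 18 tested fell and 0 rose, with a median log2 fold change of 0.06. Ikzf3, which encodes Aiolos, an Ikaros-family factor of lymphocytes including B cells, measured 108, 111 and 104 CPM in Nfkb2-/-, against 202, 227 and 182 CPM in wild type. The groups were far apart and tight (log2 fold change -0.92, SE 0.124, edgeR adjusted p = 0.0166), yet the adjusted p was between 0.109 and 0.151 without any 1 Nfkb2-/- library and 0.0572 without wild type replicate 2. The summed B cell markers without Ighm were lower in the same libraries. Batf, whose product pairs with IRF4 in T cells, was at 44.0 to 47.8 CPM in Nfkb2-/- and 22.7 to 38.6 CPM in wild type. This is the opposite order to Irf4, without overlap, and Batf did not pass the test. Spi1 and Spib, which encode PU.1 and SPI-B of B and myeloid cells, were low, at 0.414 to 2.36 and 3.14 to 9.12 CPM in Nfkb2-/- and 3.13 to 7.44 and 9.33 to 42.6 CPM in wild type, with no call. Batf, Spi1 and Spib are named here after their values were seen.

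Of 17 binding regulators and modifiers of IRF proteins, 1 fell and 0 rose (median -0.07). Irf2bpl, a relative of the corepressors that bind IRF2, fell from 186, 221 and 222 CPM in wild type to 125, 131 and 126 CPM in Nfkb2-/-. Each Nfkb2-/- library was well below each wild type library (log2 fold change -0.72, SE 0.12, edgeR adjusted p = 0.0324). The adjusted p was 0.154 to 0.226 without any 1 Nfkb2-/- library, and 0.118 and 0.0943 without wild type replicates 2 and 3.

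Sensors and kinases upstream of the IRFs had 0 of 24 called (median 0.03; 1 not tested). Traf3, an adaptor that serves both antiviral signalling and the breakdown of the kinase NIK in the pathway of p100, measured 339, 471 and 435 CPM in the 3 Nfkb2-/- libraries, against 151, 246 and 203 CPM in wild type. The groups did not overlap, with a log2 fold change of 1.05 (edgeR adjusted p = 0.0592). It passed with the replicate block (0.0236), by DESeq2 (0.000601), with no count filter (0.000986) and without wild type replicate 1 (0.00317). Ikbke, an IRF3 and IRF7 kinase, had a log2 fold change of -0.55 and was highest in wild type replicate 1 (320.4 CPM against 139 to 179 CPM elsewhere). Tbk1, the related kinase, named after its values were seen, was at 112 to 126 CPM in Nfkb2-/- and 100.5 to 121 CPM in wild type.

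Interferons, their receptors and signalling partners had 0 of 16 called (median -0.06; 2 not tested). Ifnb1, the gene of interferon-beta, had 3 counts in all 6 libraries together, and Ifng was at 1.24 to 4.75 CPM. Stat2, a partner of IRF9, was at 82.6 to 85.2 CPM in Nfkb2-/-, below the 87.3 to 109 CPM of wild type but without a call (log2 fold change -0.21). Ifnb1, Ifng and Stat2 are named after their values were seen. Jak2, a kinase of the interferon-gamma receptor, had a log2 fold change of 0.70 without a call (edgeR adjusted p = 0.155), and was called with no count filter (0.0388), by DESeq2 (0.0316) and without wild type replicate 1 (0.0311).

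Interferon-induced target genes did not pass the main test. Type I interferon-stimulated genes had 0 of 29 called and a median of -0.08, with Sp100, a nuclear body gene, at -0.63 and Oas1a, an RNA-sensing enzyme, at 0.70. Sp100 was called in edgeR with no count filter (adjusted p = 0.0459) and with the replicate block (0.048). Genes induced by IRF1 or interferon-gamma had 0 of 24 called and a median of -0.11, with 19 negative. Their smallest p-values were those of the guanylate-binding GTPases Gbp2 (log2 fold change -1.08, edgeR adjusted p = 0.0525) and Gbp3 (-0.60, adjusted p = 0.142). Gbp2 measured 76.0, 83.2 and 79.9 CPM in the 3 Nfkb2-/- libraries, against 227, 131 and 148 CPM in wild type. It was called by DESeq2 (adjusted p = 0.000229), and in edgeR with no count filter (0.000326) and without wild type replicate 1 (0.000492), as was Gbp3 in the last of these (0.00283).

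Genes of effector Tregs tied to IRF4 leaned the other way from Irf4 itself. This list was drawn up with earlier results of these data known, so its lean is a description only. Of 18 tested, 4 rose and 0 fell, where 1.01% and 0.405% of all genes did. In 16 the log2 fold change was positive (median 0.68), and 11 were higher without overlap, where 10.7% of all genes were. Those that rose were Il1rl1 (log2 fold change 1.53), which encodes the interleukin-33 receptor, Klrg1 (1.5), a receptor of differentiated lymphocytes, Tnfrsf9 (1.05), which encodes 4-1BB, and Gata3 (0.80). Leaving out any 1 Nfkb2-/- library left 0 pathway genes called in either direction; without wild type replicate 1, 14 were called higher and 11 lower, without replicate 2, 1 and 0, and without replicate 3, 2 and 1. Calls over all genes moved in the same way, to 6 to 12 higher and 1 to 3 lower without an Nfkb2-/- library, and to 628 higher and 606 lower (4.6% and 4.44%) when wild type replicate 1 was left out. Omitting wild type replicate 2 gave 54 higher and 9 lower, and omitting replicate 3 gave 56 and 10. Prdm1, which encodes the IRF4 target Blimp-1, measured 20.8, 26.5 and 20.4 CPM in the 3 Nfkb2-/- libraries, against 9.6, 19.2 and 15.6 CPM in wild type. Il10, an interleukin gene downstream of both, ran the other way, at 23.5, 42.2 and 32.2 CPM in Nfkb2-/- and 28.1, 65.8 and 90.4 CPM in wild type, overlapping. Prdm1 and Il10 are named after their values were seen, and neither passed the test.

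**Figure D5:**
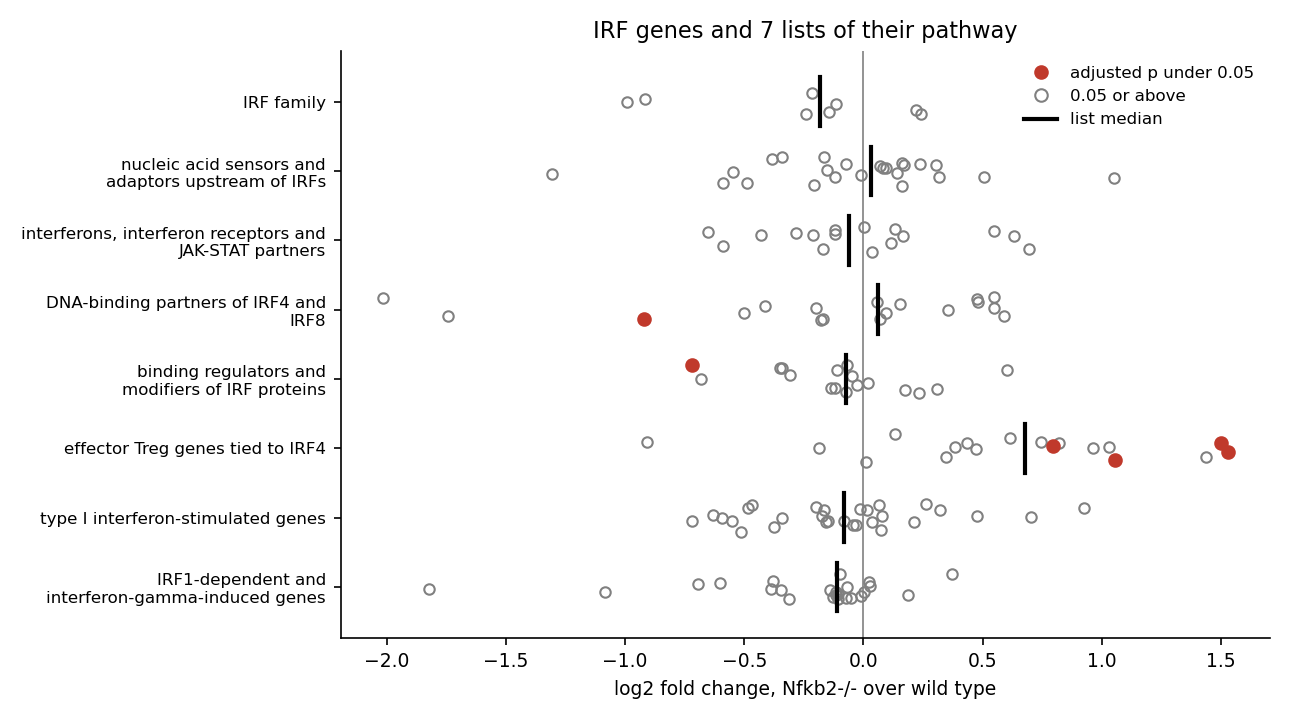
Log2 fold change (horizontal axis, Nfkb2-/- over wild type) of the 8 IRF genes and of the tested genes in 7 lists; filled red circles had an edgeR adjusted p under 0.05, and black bars are list medians. The medians lie near 0 except that of the effector Treg list at 0.68. The lists were chosen with earlier results of these data known.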

How the data were processed

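Each sample's file, as the authors deposited it, holds raw whole-number read counts per gene. FastQC, HISAT2, HTSeq, DESeq2 and GRCm38 are named in the submitters' processing notes with no version, libraries were unstranded per the labels' protocols, and no source used here gives the counting mode. Symbols, positions and lengths came from GENCODE M21 (GRCm38), which matched 55480 of 55573 identifiers.

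The members, gene lists and tests were chosen with earlier results of these data known. The main test was edgeR 4.0.16 in R 4.3.3 (filterByExpr, TMM, robust quasi-likelihood fit, genotype as the only term) over 13347 genes with Benjamini-Hochberg adjustment. Alternatives were other scalings and filters, DESeq2 1.42.0, limma-voom (limma 3.58.1), the replicate block and leaving out each library. The planned comparison of protein sequences was not made. Genes were named by rule: all members, the called genes of each list (or the 2 of smallest p), and the 3 genes most like each member; others are marked in the text. Some genes that the rule names are not reported here.

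Replicate numbers are shared between genotypes without a stated meaning. Libraries of the same number deviated together (r of 0.364, 0.267 and 0.111, all above 0.1), although Nfkb2-/- replicate 3 ran closer to wild type replicate 2 (0.251). The numbers were used as pairs in the block fit only, and the main test leaves any pairing out. The block stayed an alternative. No 2 libraries matched within sampling noise. On simulated counts for this contrast (13347 genes, 13099 tested) the test found 1 of 49 genes at 1.5-fold, 26 of 49 at 2-fold and 42 of 48 at 4-fold, with 10 false among 125 calls.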

Additional observations from a re-analysis of the deposited data

How the results depend on the processing

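None of the IRF genes was called in edgeR with RLE or upper-quartile scaling, with a filter of 1 CPM in 3 libraries or in limma-voom. Irf4 was the 1 member called, as lower, with no count filter, by DESeq2 and with the replicate block, which changed no other call among the members. Leaving out each library in turn gave 0 to 1 members higher and 0 to 2 lower, the nonzero counts coming from the fit without wild type replicate 1. Pathway genes called higher and lower were 8 and 5 with no count filter, 13 and 6 by DESeq2, 6 and 3 with the replicate block, and 0 to 14 and 0 to 11 without each library. Over all genes, 292 and 174 were called with no count filter, 402 and 235 by DESeq2, 196 and 93 with the replicate block, and 6 to 628 and 1 to 606 without each library. The log2 fold change of Irf7 ran from -0.30 to 0.05 when each library was left out, turning to 0.052 without wild type replicate 3, and the other 7 members kept their sign in all 13 alternatives. With the length of the longest transcript in place of merged exons, the share of Irf1 was 38.9% in Nfkb2-/- and 37.6% in wild type, that of Irf4 11.7% and 18.2%, and that of Irf8 in Nfkb2-/- 2.54%, and Irf2 ranked above Irf5. The fits without 1 library hold 2 samples in a genotype.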

Other observations

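Several members share exons with a neighbouring gene, and none of these 5 neighbours was called in edgeR. Tnpo3, a nuclear import receptor whose exons overlap those of Irf5 on the other strand, was at 95.7 to 107 CPM in all 6 libraries (log2 fold change -0.02). Phrf1 overlaps Irf7 on the other strand and was at 151 to 187 CPM (0.09), and Rnf31, which encodes the HOIP subunit of the linear ubiquitin ligase complex and overlaps Irf9 on the same strand, was at 107 to 171 CPM, highest in wild type replicate 1 (-0.05). Bcl2l12, which overlaps Irf3 on the other strand, was low, at 1.95 to 3.31 CPM in Nfkb2-/- and 2.77 to 6.74 CPM in wild type (-0.73), and the predicted gene Gm17334, which overlaps Irf1 on the other strand, was at 8.09 to 10.5 CPM (0.16). No source used here says how overlapping reads were counted, and for Irf1, Irf3, Irf5, Irf7 and Irf9 reads of the neighbour cannot be told apart.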
